A study of Mus musculus with 20 samples.

Results

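The genes described here are 36 collagen, extracellular matrix and stellate cell genes of mouse liver, taken by symbol from a list of names out of the 38784 gene symbols of the deposited table. They are 5 fibrillar collagens, 4 beaded-filament or fibril-associated collagens, 8 basement membrane genes, 8 matrix glycoproteins and proteoglycans, 2 crosslinking enzymes, 3 metalloproteinase inhibitors and 6 genes of mesenchymal cells. Every one of the 36 has a row in the table. The study knocked down eIF3m, a subunit of the translation initiation factor eIF3, in liver. FVB/N mice aged 6 to 8 weeks received siRNA in lipid nanoparticles through the tail vein at 0.5 mg/kg, with 1 injection in 5 days, for 13 or 9 days. The 4 groups were Eif3m siRNA at day 13 (2 livers), control siRNA at day 13 (2 livers), Eif3m siRNA at day 9 (3 livers) and control siRNA at day 9 (3 livers). The control siRNA is a scrambled luciferase sequence, so all mice received nanoparticles and no group was uninjected. Each liver gave 1 RNA library and 1 library of ribosome footprints (Ribo-seq), in which the stretches of mRNA covered by ribosomes are sequenced, for 20 libraries in all.

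Collagens are made as procollagen chains in the endoplasmic reticulum, assembled into triple helices and secreted, after which fibrils are crosslinked outside the cell. In liver the fibrillar collagens come mainly from hepatic stellate cells and portal fibroblasts, while sinusoidal endothelial cells add basement membrane proteins and hepatocytes secrete fibronectin and the precursor of endostatin. Stellate cells store retinoids at rest and become myofibroblast-like cells that lay down fibrillar collagen after injury.

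The libraries held 1.64 to 6.52 M counts (mega-counts) for day 13 footprints, 4.50 to 7.69 M for day 9 footprints, 4.96 to 26.4 M for day 13 RNA and 27.4 to 39.0 M for day 9 RNA. Levels are in counts-per-million (CPM) after scaling within an assay, so they are not corrected for gene length and are not compared between genes. Eif3m itself averaged 4.08 CPM in Eif3m livers and 77.6 CPM in control livers in day 13 footprints, 23.9-fold lower, and 6.15 CPM against 75.9 CPM at day 9, 12.2-fold lower. Its RNA was 16.1-fold lower in Eif3m livers at day 13 and 9.64-fold lower at day 9. The hepatocyte markers, 11 genes including albumin, summed to 163000 to 316000 CPM over the footprint libraries. The sample codes differ between the days, so day and experiment cannot be told apart, and the RNA kit also changed with the day, whereas 1 footprint kit served both. Levels are therefore compared between days in footprints, and RNA between siRNAs within a day. The liver is a mixture of cells, and fewer cells of a type and less RNA per cell cannot be told apart in these data.

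Control livers had more footprints on fibrillar collagens and on many other matrix mRNAs at day 13 than at day 9. Of the 34 members with enough counts to be tested, 21 rose and 0 fell in control livers at day 13 relative to day 9, where 5.47% of all genes tested rose and 4.88% fell, 10.3% in all. A change was called at an adjusted p below 0.05 in edgeR's quasi-likelihood test with Benjamini-Hochberg adjustment over all genes tested, which holds for every adjusted p given here. The median log2 change was 0.82 over the tested members and -0.02 over all genes tested. In 30 of the 36 members both day 13 control livers lay above all 3 day 9 control livers, and in 0 they lay below. In 6 (Col6a3, Col15a1, Lamb1, Loxl1, Timp3 and Des) the groups overlapped. The 30 include Lox and Timp1, which had too few counts to be tested. Separation of groups was counted for the members only, here and below, so no share over all genes stands beside it. All 5 fibrillar collagens rose, 3 of the 4 beaded and associated collagens, 5 of the 8 basement membrane genes, 5 of the 8 glycoproteins and proteoglycans, and 3 of the 6 mesenchymal cell genes. The same change in Eif3m livers was called in 3 members, where 10.2% of all genes tested rose and 8.72% fell, 18.9% in all. These were Fn1, Fbn1 and Thbs1, and all 3 were lower at day 13. The median log2 change of the tested members between the days was -0.13 in Eif3m livers, beside -0.01 over all genes tested. Without day 13 Eif3m replicate 2 the count in Eif3m livers was 0, and Fbn1 was lost in 13 of its 17 alternatives and Thbs1 also with DESeq2 and with a replicate block. Without day 13 control replicate 2 the count in control livers was 14 and that over all genes 322 in place of 1264, and 12 of the 21 calls held under every alternative tried.

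**Figure D1:**
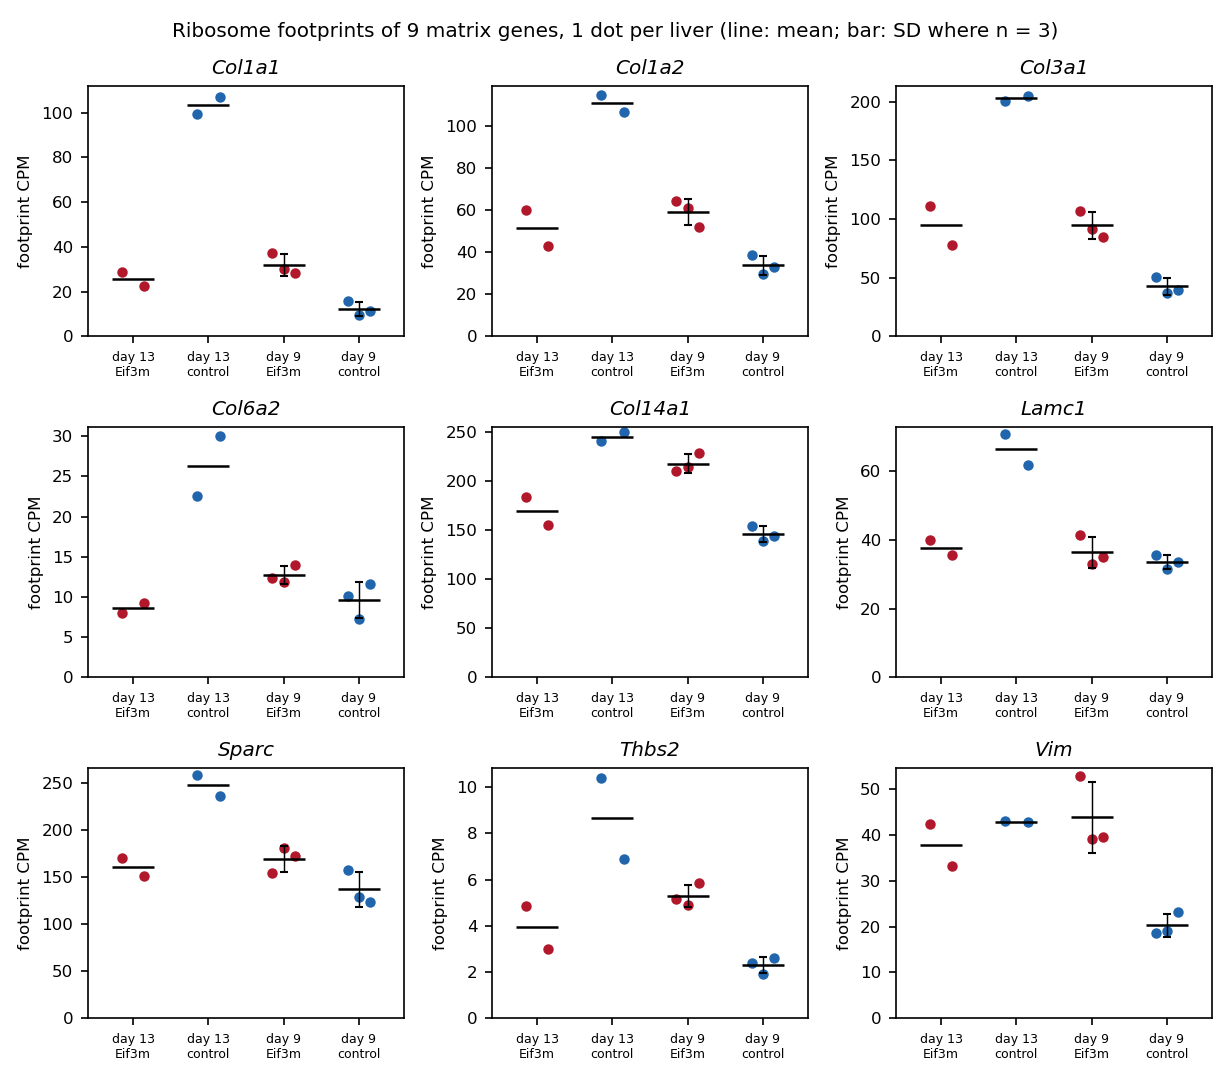
Ribosome footprints of 9 matrix genes in each liver, in CPM on linear axes from 0, by siRNA and day, with 1 point per liver, a line at each group mean and a bar of 1 SD where n = 3. For Col1a1 and Col3a1 the 2 day 13 control livers lie highest and the 3 day 9 control livers lowest, with both Eif3m groups between them.

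**Figure D2:**
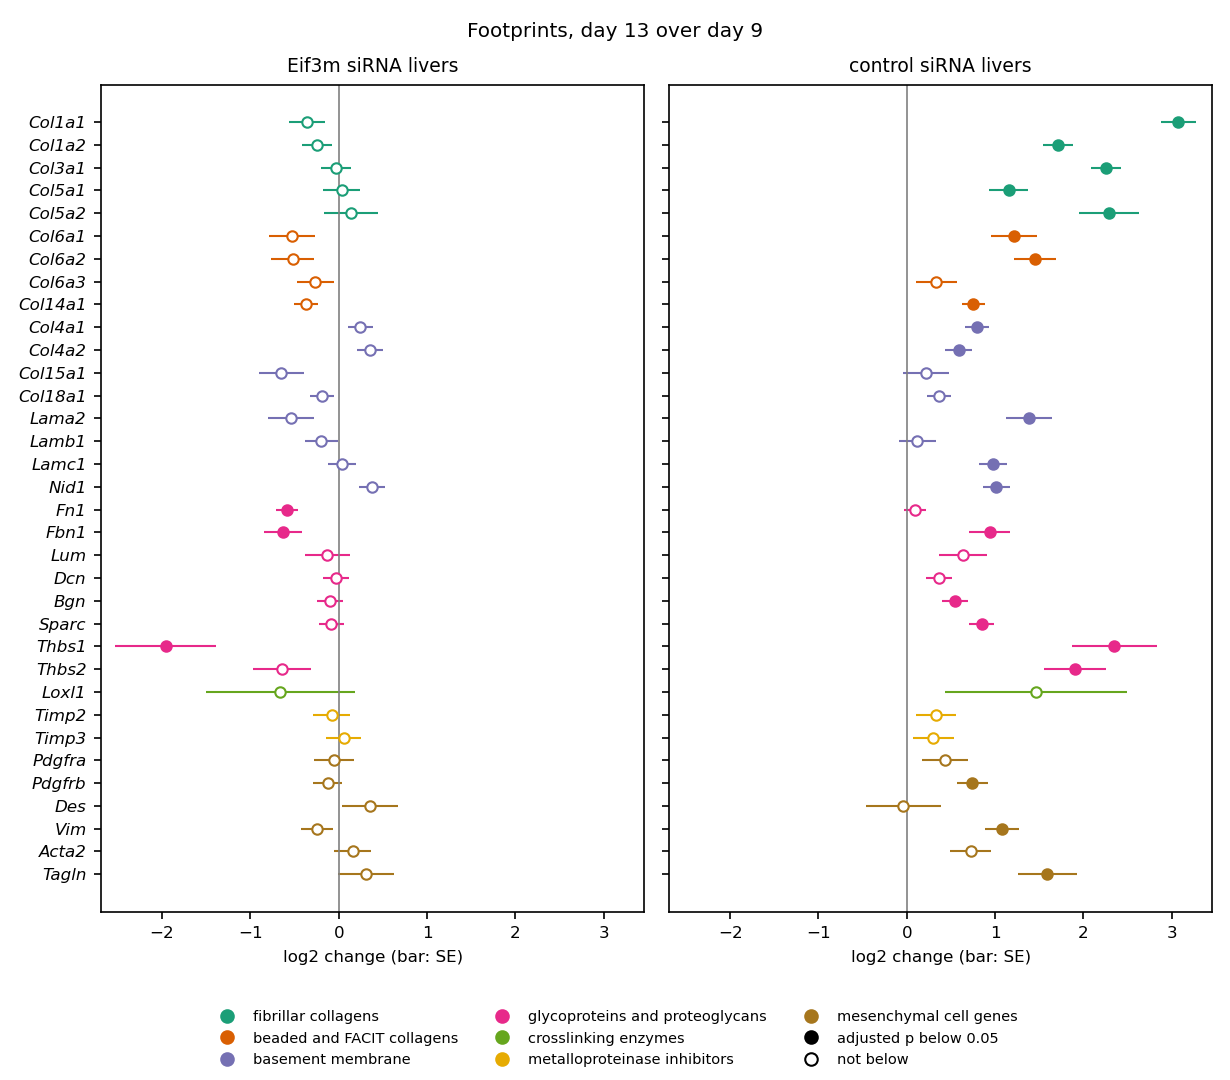
Log2 change of each tested member in footprints, day 13 over day 9, in Eif3m livers and in control livers, with bars of 1 SE and filled points at an adjusted p below 0.05. In control livers 21 of 34 genes are filled to the right of 0, and in Eif3m livers 3 are filled, to the left of 0.

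The Eif3m siRNA went with fewer footprints on these genes at day 13 and more at day 9, each against the control siRNA of the same day. At day 13, 15 of 34 tested members fell and 0 rose in Eif3m livers, where 6.12% of all genes tested rose and 6.26% fell, 12.4% in all. The median log2 change was -0.60 over members and 0.02 over all genes. In 24 of the 36 both Eif3m livers lay below both control livers, in Col4a2 and Des they lay above, and in 10 the groups overlapped. At day 9, 14 members rose and 0 fell, where 6.84% of all genes tested rose and 7.90% fell, 14.7% in all, with a median log2 change of 0.45 beside 0.02 over all genes. In 25 of the 36 the 3 Eif3m livers lay above the 3 control livers, in 0 below, and in 11 they overlapped. Col1a1, Col1a2, Col3a1, Col14a1, Fbn1, Thbs1 and Thbs2 were called in both comparisons, higher at day 9 and lower at day 13. Of the 34 tested members, 25 had a positive change at day 9 and a negative one at day 13. The share of all genes with these signs was not counted, nor was the share with separated groups on either day. The 2 comparisons have no libraries in common, but they were scaled together and share 1 estimate of spread. The change between days in control livers shares the 2 day 13 control livers with the day 13 siRNA comparison. It shares the 3 day 9 control livers with the day 9 siRNA comparison, so these sets of values are not independent. With scaling by library totals in place of TMM, the median log2 change of all genes moved to 0.34 at day 13 and 0.25 at day 9, and 7 members fell and Col4a2 rose at day 13, while 25 rose at day 9. The day 13 calls lost under library totals were those of Col14a1 (log2 -0.22), Col15a1 (-0.66), Col18a1 (-0.25), Lamc1 (-0.50), Fn1 (-0.37), Fbn1 (-0.545), Sparc (-0.31) and Thbs2 (-0.997).

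The difference between the 2 siRNA effects was tested directly, as the log2 change at day 13 minus that at day 9. It equals the change between days in Eif3m livers minus that in control livers, and draws on the same livers. It was negative and called in 13 members and positive and called in 0, where 0.598% of all genes tested had a lower and 0.221% a higher effect, 0.819% in all. Its median was -0.90 over the tested members and 0.02 over all genes. The 13 were Col1a1, Col1a2, Col3a1, Col5a2, Col6a1, Col6a2, Col14a1, Lama2, Fbn1, Sparc, Thbs1, Thbs2 and Vim. These counts leaned on single day 13 livers. Without day 13 Eif3m replicate 2 the day 13 comparison called 4 members and the difference 3, without control replicate 1 they called 8 and 7, and without control replicate 2 they called 9 and 5. The calls over all genes in these omissions were 429 and 7, 697 and 43, and 747 and 24, in place of 1513 and 100. The calls of Col1a1, Col1a2, Col3a1 and Col6a2 at day 13, and of Col1a1, Col1a2 and Col3a1 in the difference, held under every alternative tried. The difference in Vim was also lost without day 9 control replicate 2, that in Col5a2 without day 9 control replicate 1 or 2, that in Col6a1 without day 9 Eif3m replicate 3 or control replicate 1 or 3, that in Sparc without any 1 of 3 day 9 livers, and those in Fbn1 and Sparc without day 13 Eif3m replicate 1.

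**Figure D3:**
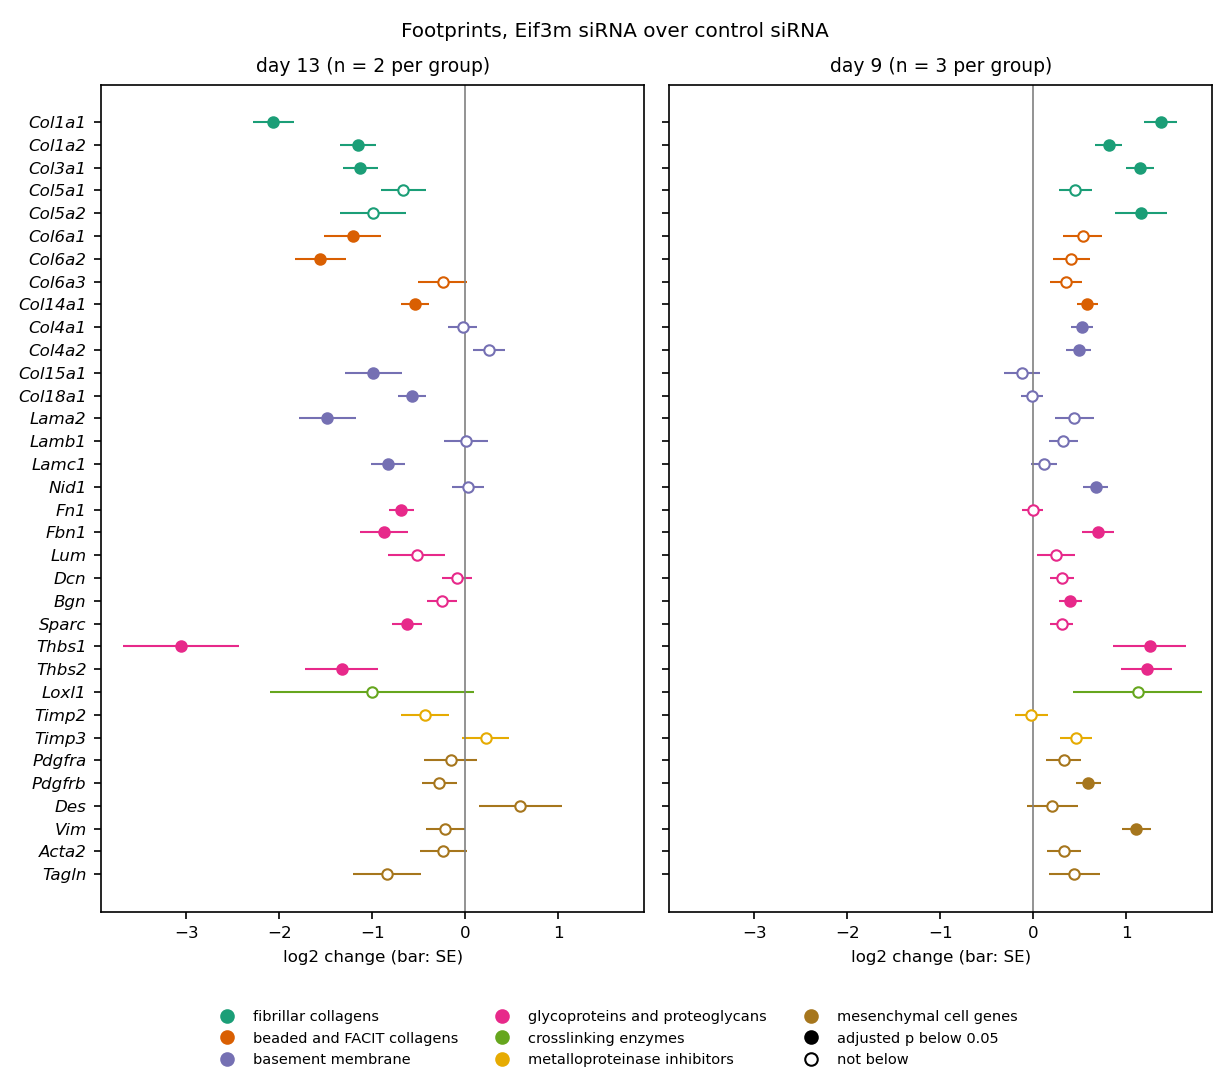
Log2 change of each tested member in footprints, Eif3m over control siRNA, at day 13 and at day 9, with bars of 1 SE and filled points at an adjusted p below 0.05. At day 13 the 15 filled points lie left of 0, and at day 9 the 14 filled points lie right of 0.

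Among the fibrillar collagens, Col1a1 and Col1a2 encode the chains of type I collagen, the main protein of fibrous tissue. Col1a1 footprints were 28.9 and 22.5 CPM in day 13 Eif3m livers against 99.6 and 107 CPM in day 13 control livers, and 37.3, 29.9 and 28.4 CPM in day 9 Eif3m livers against 15.9, 9.63 and 11.3 CPM in day 9 control livers. No groups of the same day overlapped, and the Eif3m livers of the 2 days lay close together while the control livers moved apart. Control livers were 8.43-fold higher at day 13 than at day 9 (log2 3.08 ± 0.20, SE, adjusted p = 1.2e-08). Eif3m livers were 4.19-fold lower than control livers at day 13 (log2 -2.07 ± 0.22, SE, adjusted p = 5.6e-06) and 2.59-fold higher at day 9 (log2 1.37 ± 0.18, SE, adjusted p = 3.8e-05). The effects of the 2 days differed by -3.44 on the log2 scale (SE 0.28, adjusted p = 1.4e-06).

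Col1a2 footprints were 60.0 and 43.0 CPM in day 13 Eif3m livers against 115 and 107 CPM in day 13 control livers, and 64.3, 61.1 and 52.3 CPM in day 9 Eif3m livers against 38.8, 29.7 and 32.8 CPM in day 9 control livers. As for Col1a1, the Eif3m livers lay below the control livers at day 13 and above them at day 9, with no overlap. The control livers were 3.29-fold higher at day 13 than at day 9 (adjusted p = 3.2e-06), and the siRNA changes were log2 -1.15 ± 0.19 at day 13 (SE, adjusted p = 0.00047) and 0.81 ± 0.15 at day 9 (SE, adjusted p = 0.00093). Col3a1, the chain of type III collagen that accompanies type I in reticular fibres, had 111 and 78.2 CPM in day 13 Eif3m livers against 201 and 205 CPM in day 13 control livers. At day 9 it had 107, 91.6 and 85.1 CPM in Eif3m livers against 50.5, 37.3 and 39.8 CPM in control livers. The groups of each day were again separate. It was 4.78-fold higher in control livers at day 13 than at day 9 (adjusted p = 8e-08), 2.19-fold lower with Eif3m siRNA at day 13 (adjusted p = 0.00047) and 2.22-fold higher with it at day 9 (adjusted p = 4.5e-05).

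Type V collagen starts and regulates type I fibrils. Its chain Col5a2 had 6.29 and 5.09 CPM in day 13 Eif3m livers against 9.56 and 12.2 CPM in day 13 control livers, and 4.87, 5.72 and 4.07 CPM in day 9 Eif3m livers against 1.95, 2.0 and 2.76 CPM in day 9 control livers. The livers of the 2 siRNAs did not overlap on either day. The change was called at day 9 (log2 1.16, adjusted p = 0.008) and in control livers between days (4.9-fold higher at day 13, adjusted p = 0.00036), and was log2 -0.99 with an adjusted p of 0.072 at day 13. Col5a1 was 2.23-fold higher in control livers at day 13 than at day 9 (adjusted p = 0.0022, or 0.097 without day 13 control replicate 1), and its siRNA change of log2 -0.67 at day 13 had an adjusted p of 0.082.

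Col1a2, Col3a1 and Thbs2 are among the 7 members called in opposite directions at the 2 days in footprints. Whether promoters had a part in this was not tested. The sequences before the starts of these 2 fibrillar collagens and of the matricellular gene Thbs2 are shown as examples. They are the 250 bases before each RefSeq start on GRCm38.p6, read 5′ to 3′ on the gene's strand, for Col1a2 at chr6:4505368-4505617 (plus strand), Col3a1 at chr1:45311288-45311537 (plus) and Thbs2 at chr17:14694263-14694512 (minus). Capitals mark 3 motifs on either strand. The first is CCAAT, which on the opposite strand reads as ATTGG. The GC box is GGGCGG, which on the opposite strand reads as CCGCCC. The third is TATAAA, which on the opposite strand reads as TTTATA.
Col1a2: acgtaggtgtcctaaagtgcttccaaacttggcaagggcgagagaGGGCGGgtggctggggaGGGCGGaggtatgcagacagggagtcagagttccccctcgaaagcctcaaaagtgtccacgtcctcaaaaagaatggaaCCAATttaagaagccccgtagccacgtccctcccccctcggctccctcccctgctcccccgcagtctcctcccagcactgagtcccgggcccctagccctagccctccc
Col3a1: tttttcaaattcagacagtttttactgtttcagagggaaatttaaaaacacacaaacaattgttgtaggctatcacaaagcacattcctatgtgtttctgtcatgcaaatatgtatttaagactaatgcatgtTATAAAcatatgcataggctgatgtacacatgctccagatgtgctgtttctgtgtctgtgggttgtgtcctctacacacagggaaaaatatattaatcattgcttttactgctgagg
Thbs2: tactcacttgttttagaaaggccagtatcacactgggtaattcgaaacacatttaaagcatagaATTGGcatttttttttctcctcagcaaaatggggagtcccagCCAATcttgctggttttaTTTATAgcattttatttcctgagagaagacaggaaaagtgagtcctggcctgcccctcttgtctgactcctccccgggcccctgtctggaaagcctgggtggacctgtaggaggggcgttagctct
Of these, Col1a2 holds a CCAAT and a pair of GC boxes, Col3a1 holds a TATAAA, and Thbs2 holds CCAAT on both strands and a TTTATA. Promoter windows were available for 24 of the 36 members, with 26 windows. CCAAT on either strand was in 38.5% of the members' windows and 33.8% of all 32851 windows of the same length, GGGCGG in 53.8% and 32.7%, and TATAAA in 11.5% and 12.4%. No match overlaps another in the 3 sequences shown, and a match is a description of the sequence and not a binding site.

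The beaded-filament collagen VI forms a fine network around cells and binds fibrils and basement membranes. Col6a2 footprints were 8.0 and 9.27 CPM in day 13 Eif3m livers against 22.6 and 30.0 CPM in day 13 control livers, and 12.4, 11.8 and 14.0 CPM in day 9 Eif3m livers against 10.1, 7.23 and 11.6 CPM in day 9 control livers. The groups were apart on both days, narrowly at day 9. Eif3m livers were 2.95-fold lower at day 13 (adjusted p = 0.00081), the day 9 change was log2 0.41 (adjusted p = 0.17), and control livers were 2.73-fold higher at day 13 than at day 9 (adjusted p = 0.00078). Col6a1 had 19.4 and 9.27 CPM in day 13 Eif3m livers against 24.3 and 33.5 CPM in day 13 control livers, and 18.4, 18.6 and 17.3 CPM in day 9 Eif3m livers against 13.1, 14.5 and 9.77 CPM in day 9 control livers. Both day 13 Eif3m livers lay below both control livers but differed widely from each other, and the day 9 groups were apart. The day 13 fall of log2 -1.21 (adjusted p = 0.011) had an adjusted p of 0.43 without Eif3m replicate 2 and 0.17 without control replicate 2, and the change in control livers between days (2.32-fold, adjusted p = 0.0052) had one of 0.16 without day 13 control replicate 2. The remaining chain, Col6a3, was not called in any comparison.

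Col14a1 encodes a collagen that sits on the surface of fibrils. It had 184 and 156 CPM in day 13 Eif3m livers against 241 and 250 CPM in day 13 control livers, and 211, 215 and 229 CPM in day 9 Eif3m livers against 155, 139 and 144 CPM in day 9 control livers. The groups of each day did not overlap, and the changes were smaller than those of the type I chains. They were log2 -0.54 at day 13 (adjusted p = 0.019), 0.58 at day 9 (adjusted p = 0.0019) and 0.75 in control livers between days (adjusted p = 0.0014). The day 13 call was lost without Eif3m replicate 2 (log2 -0.41, adjusted p = 0.29), control replicate 1 (adjusted p = 0.081) or control replicate 2 (adjusted p = 0.12).

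The basement membrane genes divided by comparison. Col4a1 and Col4a2 encode the type IV collagen chains that form the sheet of most basement membranes, and Nid1 encodes nidogen, which links that sheet to laminin. Col4a1 had 147 and 129 CPM in day 13 Eif3m livers against 137 and 143 CPM in day 13 control livers, where the groups overlapped, and 118, 112 and 118 CPM in day 9 Eif3m livers against 90.4, 72.4 and 79.5 CPM in day 9 control livers. The day 9 change was log2 0.52 (adjusted p = 0.0061, or 0.052 without day 9 control replicate 2), the day 13 change was -0.03 (adjusted p = 0.95), and control livers were 1.74-fold higher at day 13 than at day 9 (adjusted p = 0.0014). Nid1 had 82.5 and 69.4 CPM in day 13 Eif3m livers against 76.4 and 70.2 CPM in day 13 control livers, and 55.0, 63.7 and 54.6 CPM in day 9 Eif3m livers against 37.6, 32.5 and 38.7 CPM in day 9 control livers. Its pattern was that of Col4a1, with overlap at day 13 (log2 0.03, adjusted p = 0.94), a 1.6-fold rise at day 9 (adjusted p = 0.0018) and control livers 2.02-fold higher at day 13 than at day 9 (adjusted p = 0.00054). Col4a2 was higher at day 9 (log2 0.49, adjusted p = 0.015) and log2 0.25 at day 13 (adjusted p = 0.38), and its change in control livers between days, log2 0.59 (adjusted p = 0.018), had an adjusted p of 0.054 without day 9 control replicate 1 or 3, 0.14 without day 13 control replicate 1 and 0.11 without replicate 2. Its day 9 call was lost without day 9 control replicate 1 (adjusted p = 0.055) or 3 (adjusted p = 0.068). Col4a1, Col4a2 and Nid1 were also the members in which both day 13 Eif3m livers lay above all 3 day 9 Eif3m livers. Col4a1 and Col4a2 lie on opposite strands with starts 21 bases apart, each gene running across the start of the other, and the 22 bases from 1 start to the other (GRCm38.p6 chr8:11312805-11312826, plus strand, RefSeq) are shown for how close the pair lies.
Col4a1 and Col4a2: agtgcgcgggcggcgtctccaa
Whether counting used strand is not given in the sources used here, and the annotated spans of Col4a1 and Col4a2 overlap, as do those of Timp1 with Syn1, Timp3 with Syn3, Timp2 with Cep295nl and Tagln with Pcsk7, so reads where they overlap cannot be told apart.

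Of the laminin chains, Lama2 and Lamc1 fell with Eif3m siRNA at day 13, and none of the 3 measured was called at day 9. Lama2, the laminin chain of muscle and stromal basement membranes, had 6.86 and 4.91 CPM in day 13 Eif3m livers against 16.2 and 14.3 CPM in day 13 control livers, and 8.01, 7.03 and 8.8 CPM in day 9 Eif3m livers against 6.01, 5.23 and 6.34 CPM in day 9 control livers. The groups did not overlap on either day. The change was log2 -1.48 at day 13 (adjusted p = 0.0028, or 0.16 without Eif3m replicate 2) and 0.44 at day 9 (adjusted p = 0.17). Lamc1, a gamma chain shared by most laminins, had 40.0 and 35.5 CPM in day 13 Eif3m livers against 70.9 and 61.9 CPM in day 13 control livers, and 41.5, 32.9 and 34.9 CPM in day 9 Eif3m livers against 35.5, 31.4 and 33.7 CPM in day 9 control livers. Here 3 groups lay at one level and the day 13 control livers stood above them, by log2 0.98 over day 9 control livers (adjusted p = 0.00079) and with an Eif3m change of -0.83 at day 13 (adjusted p = 0.0046). That day 13 call was lost without Eif3m replicate 2 (adjusted p = 0.13) or control replicate 1 (adjusted p = 0.066). The laminin chain Lamb1 was not called in any comparison.

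Col18a1 and Col15a1 encode collagens of basement membrane zones, and the end of the Col18a1 chain is endostatin. Col18a1 had 794 and 920 CPM in day 13 Eif3m livers against 1320 and 1240 CPM in day 13 control livers, and 1090, 906 and 948 CPM in day 9 Eif3m livers against 967, 1060 and 942 CPM in day 9 control livers. The groups were apart at day 13 (log2 -0.57, adjusted p = 0.014) and overlapped at day 9, and the day 13 call was lost without any 1 of the 4 day 13 livers (adjusted p between 0.058 and 0.15). Col15a1 had 6.29 and 7.64 CPM in day 13 Eif3m livers against 14.2 and 14.9 CPM in day 13 control livers, and 13.0, 10.6 and 10.7 CPM in day 9 Eif3m livers against 11.9, 9.77 and 15.5 CPM in day 9 control livers. Its groups were apart at day 13 (log2 -0.99, adjusted p = 0.04) and overlapped at day 9, and the day 13 call was also lost without any 1 of the 4 day 13 livers (adjusted p between 0.12 and 0.2).

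Of the glycoproteins, Thbs1 and Thbs2 encode thrombospondins, secreted proteins that bind matrix and cell surfaces, and Thbs1 can activate latent TGF-beta. Thbs2 had 4.86 and 3.0 CPM in day 13 Eif3m livers against 10.4 and 6.91 CPM in day 13 control livers, and 5.17, 4.9 and 5.83 CPM in day 9 Eif3m livers against 2.4, 1.93 and 2.59 CPM in day 9 control livers. The groups of each day were separate. Eif3m siRNA changed it by log2 -1.33 at day 13 (adjusted p = 0.03) and 1.22 at day 9 (adjusted p = 0.0048), and the day 13 call was lost without Eif3m replicate 2 (adjusted p = 0.44) or control replicate 1 (adjusted p = 0.29). Control livers were 3.75-fold higher at day 13 than at day 9 (adjusted p = 0.0021, or 0.074 without day 13 control replicate 1). Thbs1 had 1.14 and 0.545 CPM in day 13 Eif3m livers against 4.05 and 7.44 CPM in day 13 control livers, and 3.14, 2.17 and 2.76 CPM in day 9 Eif3m livers against 1.35, 0.826 and 1.19 CPM in day 9 control livers. Its groups did not overlap on either day, and its fitted changes, on few counts, were log2 -3.06 ± 0.62 at day 13 (SE, adjusted p = 0.0026) and 1.25 ± 0.39 at day 9 (SE, adjusted p = 0.037). The day 13 value was -2.31 without Eif3m replicate 2 (adjusted p = 0.18) and -2.54 without control replicate 2 (adjusted p = 0.083). The day 9 call was lost without any 1 of 5 of the 6 day 9 livers, Eif3m replicate 2 being the other, with adjusted p between 0.056 and 0.14. Control livers were 5.1-fold higher at day 13 than at day 9 (adjusted p = 0.0041, or 0.19 without day 13 control replicate 2).

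Sparc encodes osteonectin, a collagen-binding protein that helps fibrils assemble. It had 170 and 151 CPM in day 13 Eif3m livers against 259 and 236 CPM in day 13 control livers, and 154, 181 and 172 CPM in day 9 Eif3m livers against 158, 129 and 124 CPM in day 9 control livers. Eif3m and control livers overlapped at day 9 (log2 0.31, adjusted p = 0.11) and were apart at day 13 (log2 -0.63, adjusted p = 0.013). The day 13 call was lost without Eif3m replicate 2 (adjusted p = 0.19) or control replicate 1 (adjusted p = 0.11), and control livers were 1.8-fold higher at day 13 than at day 9 (adjusted p = 0.00095). Fn1, fibronectin, which hepatocytes secrete into plasma, had 3690 and 3290 CPM in day 13 Eif3m livers against 5700 and 5530 CPM in day 13 control livers, and 5310, 5160 and 5180 CPM in day 9 Eif3m livers against 5260, 5460 and 5030 CPM in day 9 control livers. Here the day 13 Eif3m livers alone were low, and the other 3 groups lay at one level. The fall was log2 -0.69 at day 13 (adjusted p = 0.0022, or 0.073 without Eif3m replicate 2, and -0.37 with an adjusted p of 0.056 under library totals), beside -0.01 at day 9 (adjusted p = 0.98) and 0.10 in control livers between days (adjusted p = 0.68).

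Fbn1, the fibrillin of elastic microfibrils, had 7.91 and 11.7 CPM in day 13 Eif3m livers against 20.6 and 17.8 CPM in day 13 control livers, and 18.1, 14.9 and 16.4 CPM in day 9 Eif3m livers against 9.01, 10.4 and 10.9 CPM in day 9 control livers. The groups of each day were separate, and the gene was called in both directions, with log2 -0.88 at day 13 (adjusted p = 0.031) and 0.70 at day 9 (adjusted p = 0.01). The day 13 call was lost without any 1 of the 4 day 13 livers (adjusted p between 0.073 and 0.21) and the day 9 call without day 9 control replicate 1 (adjusted p = 0.053). The small proteoglycan Bgn was log2 0.40 higher at day 9 (adjusted p = 0.038) and 0.55 higher in control livers at day 13 than at day 9 (adjusted p = 0.02). The day 9 call was lost without any 1 of 5 of the 6 day 9 livers, Eif3m replicate 1 being the other (adjusted p between 0.06 and 0.17), and the call between days without day 9 control replicate 2 (adjusted p = 0.086) or day 13 control replicate 2 (adjusted p = 0.32). In footprints the related proteoglycans Dcn and Lum, which regulate fibril thickness, were not called.

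The crosslinking enzymes were too low to read. Lox, lysyl oxidase, had 0.572 and 0.273 CPM in day 13 Eif3m livers against 0.579 and 1.06 CPM in day 13 control livers, and 0.71, 0.435 and 0.0767 CPM in day 9 Eif3m livers against 0, 0 and 0.149 CPM in day 9 control livers, and was not tested. Its relative Loxl1 had 1.14 and 0.545 CPM in day 13 Eif3m livers against 0.579 and 2.13 CPM in day 13 control livers, and 0.608, 0.435 and 2.23 CPM in day 9 Eif3m livers against 0.751, 0.413 and 0.298 CPM in day 9 control livers. Loxl1 groups overlapped on both days and it was not called.

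Of the inhibitors of matrix metalloproteinases, Timp2 had 10.3 and 13.0 CPM in day 13 Eif3m livers against 15.6 and 17.0 CPM in day 13 control livers, and 13.4, 13.0 and 12 CPM in day 9 Eif3m livers against 12.9, 14.9 and 11 CPM in day 9 control livers. The day 13 groups were apart, with a log2 change of -0.43 and an adjusted p of 0.32. Timp3 had 27.4 and 24.7 CPM in day 13 Eif3m livers against 15.1 and 28.7 CPM in day 13 control livers, and 24.1, 24.0 and 25.8 CPM in day 9 Eif3m livers against 15.3, 19.5 and 18.8 CPM in day 9 control livers. The Timp3 groups were apart at day 9 (log2 0.46, adjusted p = 0.076) and overlapped at day 13. Timp1 was at or under 0.579 CPM in every footprint library and was not tested.

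Of the mesenchymal cell genes, Vim encodes vimentin, the intermediate filament of mesenchymal cells and leukocytes, and Pdgfrb encodes the PDGF receptor of stellate cells and pericytes. Vim had 42.3 and 33.3 CPM in day 13 Eif3m livers against 42.9 and 42.8 CPM in day 13 control livers, and 52.8, 39.0 and 39.5 CPM in day 9 Eif3m livers against 18.5, 19.1 and 23.1 CPM in day 9 control livers. The day 9 control livers were the low group, and day 9 Eif3m livers were 2.16-fold above them (adjusted p = 8.1e-05), beside log2 -0.21 at day 13 (adjusted p = 0.59). Day 13 control livers were 2.11-fold above day 9 control livers (adjusted p = 0.0015). Pdgfrb had 23.1 and 26.5 CPM in day 13 Eif3m livers against 29.5 and 31.5 CPM in day 13 control livers, and 27.4, 27.2 and 27.7 CPM in day 9 Eif3m livers against 18.5, 18.1 and 17.8 CPM in day 9 control livers. It too was called at day 9 (log2 0.59, adjusted p = 0.0056) and not at day 13 (log2 -0.28, adjusted p = 0.4), and its rise in control livers between days (1.68-fold, adjusted p = 0.0099) had an adjusted p of 0.066 without day 13 control replicate 1 and 0.13 without replicate 2. Tagln, an actin-binding protein of smooth muscle and myofibroblasts, had 7.43 and 4.36 CPM in day 13 Eif3m livers against 8.69 and 10.0 CPM in day 13 control livers, and 5.07, 3.98 and 3.68 CPM in day 9 Eif3m livers against 3.46, 3.03 and 2.84 CPM in day 9 control livers. It was called in control livers between days (3.02-fold higher at day 13, adjusted p = 0.0051, or 0.1 without day 13 control replicate 2) and in neither siRNA comparison. The actin Acta2 and desmin (Des), which mark myofibroblasts and muscle, and the PDGF receptor Pdgfra were not called in any comparison.

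In RNA, the matrix genes fell with Eif3m siRNA at day 13 and few were called at day 9. At day 13, 17 of 34 tested members fell and 0 rose, where 6.09% of all genes tested rose and 9.87% fell, 16.0% in all, with a median log2 change of -0.84 over members and -0.17 over all genes. In 27 of the 36 both Eif3m livers lay below both control livers and in 9 the groups overlapped. As in footprints, separation was not counted over all genes, which also leaned lower in this comparison. With library totals in place of TMM, 9 members fell and 0 rose, and the calls over all genes were 1504 higher and 1014 lower in place of 1002 and 1623. At day 9, 2 members rose and 0 fell, where 2.48% of all genes tested rose and 3.19% fell, 5.67% in all, with a median log2 change of 0.29 beside 0.00 over all genes. In 17 of the 36 the Eif3m livers lay above the control livers, in Col18a1 below, and in 18 they overlapped. The difference between the effects was called in 7 members, each negative, where 0.888% of all genes tested had a lower and 0.341% a higher effect, 1.23% in all. These were Col1a2, Col3a1, Col5a1, Col14a1, Lamc1, Thbs1 and Thbs2.

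**Figure D4:**
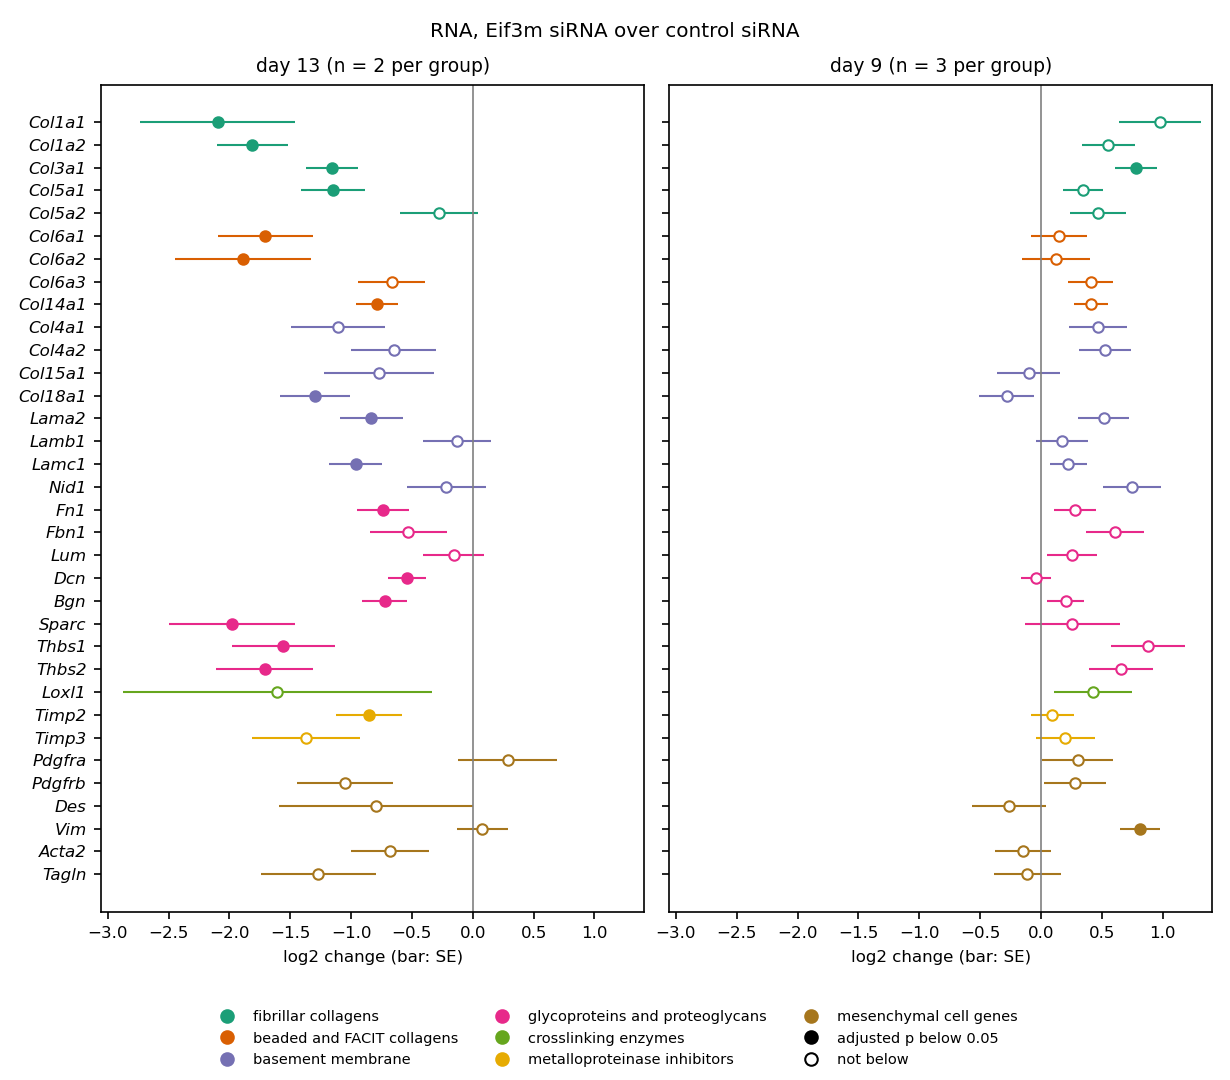
Log2 change of each tested member in RNA, Eif3m over control siRNA, at day 13 and at day 9, with bars of 1 SE and filled points at an adjusted p below 0.05. At day 13 the 17 filled points lie left of 0, and at day 9 Col3a1 and Vim are filled, right of 0.

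The RNA counts rested on single libraries. The 17 day 13 calls became 5 without day 13 Eif3m replicate 1, 6 without day 13 Eif3m replicate 2, 10 without day 13 control replicate 1, and 11 without any 1 of the 3 day 9 Eif3m livers, which enter through the shared spread. The 2 day 9 calls became 0 without day 9 Eif3m replicate 1 or control replicate 3, and 8 without either day 13 control replicate. The 7 called differences became 0 without day 13 Eif3m replicate 2, 3 without Eif3m replicate 1, 21 without day 13 control replicate 2, and 2 or 3 without any 1 day 9 liver. The calls over all genes moved too. For the difference they ran between 0 and 2065 over these omissions in place of 202, for day 13 between 1336 and 4265 in place of 2625, and for day 9 between 292 and 2366 in place of 932. Col3a1 RNA was 102 and 79.9 CPM in day 13 Eif3m livers against 237 and 169 CPM in day 13 control livers, and 111, 83.1 and 91.7 CPM in day 9 Eif3m livers against 57.8, 61.9 and 46.8 CPM in day 9 control livers. It was called in both, with no overlap, at log2 -1.15 at day 13 (adjusted p = 0.004) and 0.78 at day 9 (adjusted p = 0.02, or 0.077 without Eif3m replicate 1 and 0.082 without control replicate 3). Col1a2 RNA was 9.73 and 7.7 CPM in day 13 Eif3m livers against 40.6 and 22.0 CPM in day 13 control livers (log2 -1.81, adjusted p = 0.0018). Sparc RNA was 18.4 and 14.9 CPM in day 13 Eif3m livers against 109 and 24.5 CPM in day 13 control livers. The 2 Sparc control values differ far more than the Eif3m values do, and its change of log2 -1.98 (adjusted p = 0.028) was -0.53 without day 13 control replicate 1 (adjusted p = 0.062). Col1a1 RNA, at 0.823 and 1.41 CPM in day 13 Eif3m livers against 6.8 and 1.93 CPM in day 13 control livers, showed the same spread (log2 -2.10, adjusted p = 0.043, or -0.94 and 0.3 without day 13 control replicate 1).

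Levels of RNA in control livers also differed between the days, by an amount that the kit, the experiment and the day cannot be told apart in, and no test was made. Mean RNA was at least 2-fold higher at day 13 for 9 members, among them Col3a1 at 203 CPM at day 13 against 55.5 CPM at day 9, and at least 2-fold lower for 9, 6 of them at least 4-fold. The 6 were Col4a1, Col4a2, Col15a1, Col18a1, Loxl1 and Des, with Col18a1 at 121 CPM at day 13 against 1470 CPM at day 9. Loxl1 and Des rested on few counts at day 13, at 0.164 and 0.453 CPM. So did Lox on both days, among the 9 higher, at 0.228 CPM at day 13 against 0.0641 CPM at day 9. Col1a1 RNA was 4.37 CPM at day 13 against 9.36 CPM at day 9, while its footprints were higher at day 13.

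Translational efficiency, the footprint change minus the RNA change, was called in 0 of 34 members on either day in edgeR's test. Over all genes tested the called shares were 0% at day 9 and 0.0211% at day 13 (0.00702% higher and 0.0140% lower), and DESeq2 also called 0 members on both days. At an unadjusted p below 0.05 there were 4 of 34 members at day 13, beside 1425 of all 14236 genes tested, and 0 at day 9, beside 692 genes. The median log2 efficiency change over members was 0.33 at day 13 beside 0.13 over all genes, and 0.22 at day 9 beside 0.03 over all genes. The furthest from 0 were Timp3 at day 13 with 1.52 ± 0.51 (SE, adjusted p = 0.29) and Thbs1 with -1.59 ± 0.78 (SE, adjusted p = 0.51), and Col1a1 had -0.03 with an SE of 1.02. Without day 13 control replicate 2, 6 members were called higher at day 13, Col18a1, Col4a1, Col4a2, Pdgfrb, Sparc and Timp3, and the calls over all genes were 438 in place of 3. In day 9 control livers the log2 ratio of footprint CPM to RNA CPM had a median of 0.89 over the 32 members with a mean of at least 1 CPM in both assays, beside -0.07 over 11391 genes, and 27 of the 32 lay above that. It was highest for Timp3 (2.48 ± 0.31, SD, n = 3), followed by Nid1 (1.75) and Fbn1 (1.69), and lowest for Col18a1 (-0.58) and Col3a1 (-0.39). These ratios describe those 3 livers and were not tested.

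Around the members, 5 lists of collagen-related genes were counted in footprints. In control livers at day 13 relative to day 9, 5 of 15 genes of collagen folding and processing rose, beside 5.47% of all genes tested, among them Serpinh1, the collagen chaperone HSP47 (log2 1.76), the prolyl hydroxylase P4ha1 (1.32), the procollagen enhancer Pcolce (1.04) and the lysyl hydroxylase Plod3 (0.69). Of the matrix-degrading enzymes and relatives, 3 of 12 rose, Mmp2 (1.37), Mmp14 (0.62) and Adamts1 (0.70). Of 29 other matrix genes 3 rose, elastin (Eln, 2.68), Fbln5 (1.18) and Hspg2 (0.67). Of 16 matrix receptors, the integrin chain Itga5 rose (1.56) and Itgav fell (-1.49), and of 22 genes of TGF-beta and PDGF signalling Ctgf, a secreted target of TGF-beta, rose (1.18). The counts of the receptors and of the signalling genes lie near the shares of all genes that rose (5.47%) and fell (4.88%).

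With Eif3m siRNA these lists moved less evenly, beside 6.12% of all genes tested rising and 6.26% falling at day 13 and 6.84% and 7.90% at day 9. At day 13, P4ha2 rose (log2 1.38) and Mia3, which helps export procollagen, fell (-0.89) among the 15 folding genes. The metalloproteinases Mmp15 (-1.61) and Mmp19 (-1.32) fell, as did the receptors Itga5 (-0.82), Dag1 (-0.72) and Itgb5 (-0.72), while Itgav rose (1.40). Among the other matrix genes Ecm1 (-0.67) and Vtn (-0.48) fell. At day 13 the counts of the folding genes and of the other matrix genes lie near the shares of all genes. At day 9, Mmp19 fell (-1.27) and Mmp14 rose (0.49). Of the other matrix genes only Lamb3 rose (1.16), a count under the share of all genes that rose. Serpinh1 rose (0.77) and the endoplasmic reticulum enzymes Ppib (-0.56) and P4hb (-0.40) fell. The receptors Cd44 (1.62) and Itga9 (0.58) rose and Dag1 (-0.52) fell. In the TGF-beta and PDGF list 4 of 22 rose at day 9, including Ctgf (1.77), Skil (1.00) and Tgfbr1 (0.65), Cyr61 fell (-0.74), and 0 of 22 were called at day 13 by edgeR, with 4 at an unadjusted p below 0.05, beside 3084 of all 12213 genes tested. The Ctgf effects of the 2 days differed by log2 -2.32.

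Markers of the cells that could carry these mRNAs were summed in footprints. The 5 fibrillar collagens summed to 167 to 228 CPM in day 13 Eif3m livers against 458 to 463 CPM in day 13 control livers, and 191 to 235 CPM in day 9 Eif3m livers against 90.8 to 122 CPM in day 9 control livers. The 12 markers of resting stellate cells, among them Lrat and Reln, summed to 495 to 630 CPM in day 13 Eif3m livers against 632 to 682 CPM in day 13 control livers, and 565 to 625 CPM in day 9 Eif3m livers against 557 to 590 CPM in day 9 control livers. The stellate sums differed by far less between groups than the collagen sums did. Among the stellate markers, Ecm1 fell with Eif3m siRNA at day 13 (log2 -0.67). The stellate marker Gfap was at 0 in some footprint libraries, and its highest value was 0.46 CPM. The 7 smooth muscle markers summed to 104 to 109 CPM in day 13 Eif3m livers against 115 to 123 CPM in day 13 control livers, and 88.3 to 138 CPM in day 9 Eif3m livers against 105 to 127 CPM in day 9 control livers, with 0 of 7 called in the day comparison of control livers or at day 13. The 12 sinusoidal endothelial markers summed to 808 to 905 CPM in day 13 Eif3m livers against 863 to 887 CPM in day 13 control livers, and 803 to 977 CPM in day 9 Eif3m livers against 788 to 855 CPM in day 9 control livers. Of these, Lyve1, a hyaluronan receptor of sinusoidal and lymphatic endothelium, changed by log2 1.51 in control livers at day 13 relative to day 9 (adjusted p = 0.0013), 1.25 with Eif3m siRNA at day 9 (adjusted p = 0.00033) and -1.98 in the difference between the siRNA effects (adjusted p = 0.0099), and was not called at day 13.

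Some markers of other cells moved with the siRNA, beside the same shares over all genes. The 11 Kupffer cell markers summed to 329 to 414 CPM in day 13 Eif3m livers against 627 to 705 CPM in day 13 control livers, with 7 of 11 called lower, among them Clec4f (log2 -1.69) and C1qa (-0.96). At day 9 they summed to 597 to 671 CPM in Eif3m livers against 638 to 791 CPM in control livers, with 3 of 11 called lower. The leukocyte markers summed to 20 to 22.4 CPM in day 13 Eif3m livers against 22.4 to 26.6 CPM in day 13 control livers, and 38.9 to 41.5 CPM in day 9 Eif3m livers against 22.6 to 30.4 CPM in day 9 control livers, where Ptprc (0.73) and S100a9 (1.10) rose. Markers of portal fibroblasts and mesothelium, 2 other sources of collagen, summed to 8.79 to 9.14 CPM in day 13 Eif3m livers against 12.8 to 16.8 CPM in day 13 control livers, and 11.8 to 14.7 CPM in day 9 Eif3m livers against 10.5 to 10.7 CPM in day 9 control livers. Bile duct markers summed to 59.4 to 77.9 CPM in day 13 Eif3m livers against 34.9 to 38.8 CPM in day 13 control livers. At day 9 their sums overlapped, at 56.2 to 63.5 CPM in Eif3m livers and 35.5 to 61.9 CPM in control livers. Their day 13 RNA sums also overlapped, at 27 to 33.9 CPM in Eif3m livers and 29.3 to 32.1 CPM in control livers. Hepatocyte markers summed to 172000 to 213000 CPM in day 13 Eif3m livers against 312000 to 316000 CPM in day 13 control livers, and 163000 to 185000 CPM in day 9 Eif3m livers against 216000 to 254000 CPM in day 9 control livers. In RNA at day 13, 9 of 11 Kupffer, 9 of 12 endothelial and 2 of 11 stellate markers fell with Eif3m siRNA. Of all genes tested in RNA 9.87% fell, and the stellate count lies nearest that share. The part of these cells in the changes of the matrix genes was not tested.

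**Figure D5:**
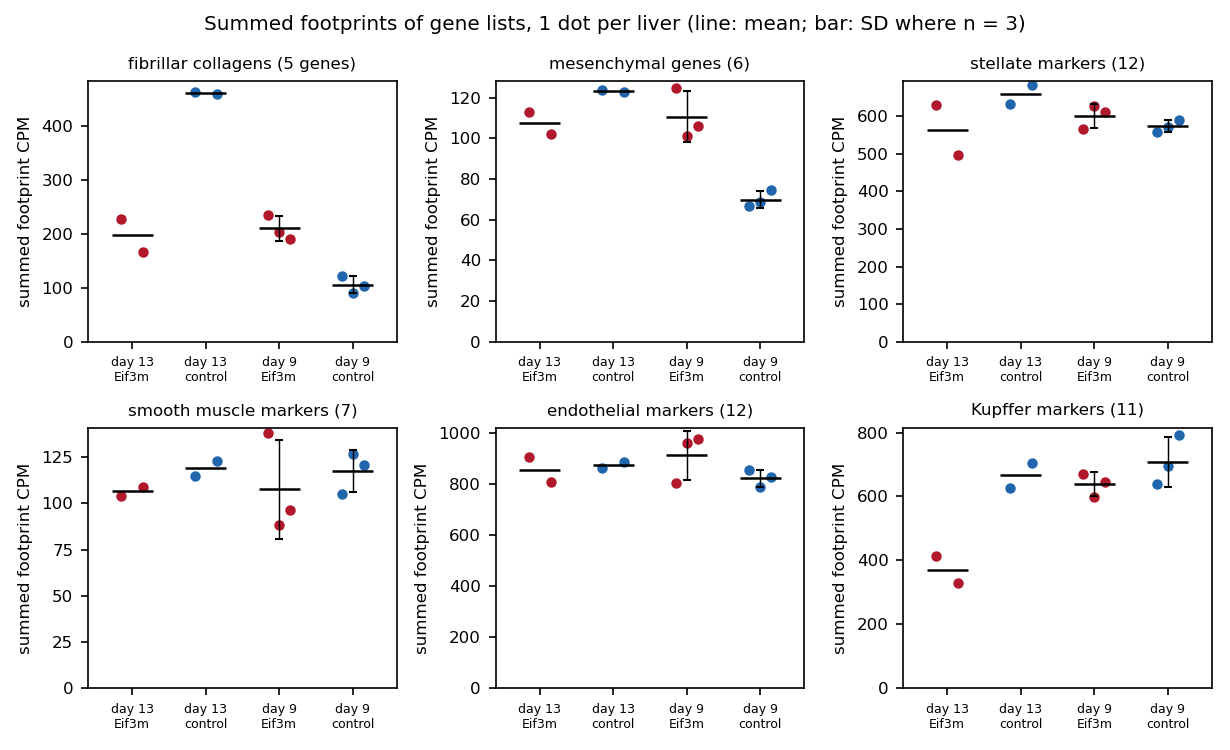
Summed footprint CPM in each liver of the fibrillar collagens, the mesenchymal cell genes and the markers of resting stellate cells, smooth muscle, sinusoidal endothelium and Kupffer cells, by siRNA and day on linear axes from 0, with 1 point per liver, a line at each group mean and a bar of 1 SD where n = 3. The fibrillar collagen sum is highest in day 13 control livers, at 458 to 463 CPM, and the Kupffer sum is lowest in day 13 Eif3m livers, at 329 to 414 CPM.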

How the data were processed

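RNA-seq and ribosome footprint libraries came from 10 livers. Per the labels' protocols, ground liver was extracted with Qiagen RNeasy, the day 9 RNA kit was KAPA mRNA capture, the day 13 RNA kit NeoPrep, and Epicenter ART-seq served for footprints throughout. Per the labels, the day 9 RNA libraries are also records of another series. The authors deposited expected counts, 1 value per symbol and library, and 44.3% of nonzero values are not whole. Per the submitters' processing notes the tools were cutadapt, Bowtie and Bowtie2. The sources used here do not give versions, the genome build, the annotation or how reads were counted.

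Counts were rounded to whole numbers and fitted in R 4.3.3 with edgeR 4.0.16 (filterByExpr, TMM within an assay, robust quasi-likelihood F test, two-sided), with the 4 groups of an assay sharing 1 estimate of spread. Efficiency was an interaction of assay and siRNA fitted over the 20 libraries. Benjamini-Hochberg adjustment ran over all genes tested, with a threshold of 0.05, in each of 10 comparisons. Code was tested on simulated data. Nothing in the labels says more of how replicates arose than 1 liver each. An exact rank test could not go below a p of 0.333 for 2 against 2 livers or 0.1 for 3 against 3. A fold change of a gene with few counts depends on the prior count of the fit.

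Values per library are given for members called in any comparison (up to 4 of a role, smallest adjusted p first), and in a role with fewer than 2 of these for its most abundant members. Col18a1, Col15a1, Fbn1 and the other members named beyond these were chosen after their values were seen. Of each pathway list up to 4 called genes per comparison are named. The members, the 5 pathway lists (114 genes) and the 8 marker lists (81 genes, 80 in the table) were chosen with earlier results of these data known. Alternatives were DESeq2 1.42.0, its size factors, library totals, other filters, a replicate block, each day or pair of groups alone, and leaving out each library. Where that left 1 liver in a group, it was assumed to vary like the others. Promoter windows and overlaps of genes came from RefSeq on GRCm38.p6, matched by symbol. The result of 1 marker gene is not reported here.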

Additional observations from a re-analysis of the deposited data

Results flagged for a closer look

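The siRNA effect differed between the days, by the test of the day 13 effect minus the day 9 effect, in 13 of the 34 tested members in footprints. The differences in log2 units were -3.44 for Col1a1, -1.96 for Col1a2, -2.28 for Col3a1, -2.15 for Col5a2, -1.74 for Col6a1, -1.97 for Col6a2, -1.12 for Col14a1, -1.93 for Lama2, -1.57 for Fbn1, -0.935 for Sparc, -4.31 for Thbs1, -2.55 for Thbs2 and -1.32 for Vim, with adjusted p between 1.4e-06 (Col1a1) and 0.033 (Sparc). In RNA the difference passed in 7 members, with -2.37 for Col1a2, -1.93 for Col3a1, -1.5 for Col5a1, -1.2 for Col14a1, -1.19 for Lamc1, -2.44 for Thbs1 and -2.37 for Thbs2, and adjusted p between 0.013 (Col3a1) and 0.049 (Lamc1). Each value is negative, the effect at day 13 being the lower of the pair. In footprints the control livers of the 2 days lay further apart than the Eif3m livers did for Col1a1, at 99.6 and 107 CPM at day 13 against 15.9, 9.63 and 11.3 CPM at day 9. Day and experiment cannot be told apart in any of these differences. In RNA neither can day and kit. Groups of 2 or 3 livers are too small for a check of single outlying livers.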

How the results depend on the processing

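In no member did a called change turn its direction under any alternative tried. Scaling by library totals in place of TMM gave 9 called members for RNA at day 13 (17 with TMM), 4 for RNA at day 9 (2), 4 for the RNA difference (7), 8 for footprints at day 13 (15), and 25 for footprints at day 9 (14). The cause was not tested. Under library totals the calls over all genes, higher and lower, were 2007 and 351 for footprints at day 13 (748 and 765 with TMM), 2302 and 451 at day 9 (835 and 965), 521 and 818 in control livers between days (668 and 596), and 881 and 363 for RNA at day 9 (407 and 525). With DESeq2 size factors the RNA day 13 split was 1253 and 1297. Without a filter beyond 1 count, RNA called 6 members at day 9 and 18 differences, and over all genes 1583 (932 in the chosen fit) and 1034 (202), with 242 footprint differences (100). DESeq2 called 4 members for RNA at day 9, 14 RNA differences (over all genes 1636 and 752), and 1 footprint change in Eif3m livers between days. Fitting each day alone gave 3 called members for RNA at day 13 and 11 at day 9, and over all genes 969 (2625) and 3445 (932). Calls of efficiency over all genes ran to 145 at day 13 (3) and 18 at day 9 (0) without the filter.

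Leaving out 1 library gave 14 to 23 called members for control footprints between days, 0 to 4 for Eif3m footprints between days, 4 to 15 for footprints at day 13, 10 to 15 at day 9, and 3 to 15 for their difference. In RNA it gave 5 to 20 at day 13, 0 to 8 at day 9 and 0 to 21 for the difference. For efficiency it gave 0 to 6 at day 13 and 0 to 0 at day 9. The calls over all genes moved over these omissions too, so the ranges do not describe the members alone. Livers of the 2 siRNAs that share a replicate number had deviations with r between -0.109 and 0.219. RNA and footprints of 1 liver gave r between 0.0731 and 0.294, so this check cannot exclude a pairing. The labels name no pairing, and the replicate number is not read as one. With it as a replicate block the counts were 3 for the RNA difference and 1 for Eif3m footprints between days, and within 1.5 times in the other comparisons. RNA and footprint libraries of 1 liver share its code, and a liver block left efficiency at 0 called members. Groups of 2 livers at day 13 and as few as 1.64 M footprint counts limit precision. Lox and Timp1 had too few counts to be tested.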
